A study of Mus musculus with 8 samples.

Results

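The semaphorins, their plexin receptors and the neuropilin co-receptors were examined in RNA from nuclei of GABAergic cells, the inhibitory cells of the cerebral cortex. Members were the protein-coding genes whose symbol in the GENCODE M21 annotation names a semaphorin of classes 3 to 7, a plexin of the groups A to D, or a neuropilin. This gave 31 of the 55450 annotated genes, namely 20 semaphorins, 9 plexins and 2 neuropilins. The RNA came from fluorescent nuclei sorted from single frozen cortices of juvenile mice. The control group was Thra+/+ (4 samples). The mutant group was Thra+/AMI, whose mutated Thra allele makes a dominant-negative thyroid hormone receptor (samples 6, 7, 8 and 10). Per the labels, all mice carried a Cre driver for GABAergic neurons and a loxP-controlled nuclear reporter, and Cre also limited the mutant allele to these neurons. The driver is not named in the labels, and neither sex nor an exact age is given. Mutant 10 had the same count as mutant 7 in each of the 55220 genes with a unique symbol. The pair, identical in these genes, was counted as 1 sample and is called mutant 7. Which of these animals the counts come from is not known. All comparisons are therefore between 4 controls and 3 mutants. The labels do not say whether litters were shared, so p-values measure the spread between these samples.

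Semaphorins are guidance ligands that steer growing axons and dendrites and that later act on synapses. Class 3 members are secreted, classes 4 to 6 span the membrane, and Sema7a is held in the membrane by a lipid anchor. Most class 3 ligands bind Nrp1 or Nrp2, which hold the ligand while a plexin of group A carries the signal into the cell. Membrane-bound ligands bind plexins directly. Sema3a protein is known to collect in perineuronal nets, the matrix that surrounds parvalbumin neurons as they mature.

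Libraries held 11797788 to 13804734 reads in controls and 10747169 to 12941251 in mutants, of which 24632 to 38063 fell in the 31 genes. Values below are CPM (the usual counts scaled to library size, here with TMM factors) and fold changes are mutant over control from edgeR. Gad1 and Gad2, the enzymes of GABA synthesis, were at 520 to 664 CPM and 367 to 497 CPM over the 7 libraries, as the label of GABAergic nuclei implies, and Slc32a1, the vesicular GABA transporter, was at 17.8 to 31.6 CPM. Markers of glutamatergic neurons were also detected. Slc17a7 was at 46.9 to 94.5 CPM, above Slc32a1 in every library, and Neurod6 at 2.72 to 9.44 CPM. The share of other nuclei was not tested. Controls 1 and 4 differed from each other by gene length. Among the 14 tested members longer than 100 kb, 13 were higher in control 4 than in control 1, with a median log2 difference of 0.79. Among the 16 shorter members the median was -0.26. The trend ran through the libraries as a whole: over all tested genes the medians were 0.70 and -0.12, and 2309 of 2529 long genes were higher in control 4. Control 4 and mutant 8 also had only 4 and 3 reads in 4 Y-linked genes, against 5094 to 6644 in the other libraries. Thra itself was at 108, 125.5, 119 and 105.5 CPM in controls 1 to 4 and at 77.6, 96.3 and 88.6 CPM in mutants 6, 7 and 8 (adjusted p 0.0543, log2 fold change -0.39, SE 0.11). The groups did not overlap, and the gene did not pass the threshold of 0.05. It passed in 6 of 15 alternatives, DESeq2 (adjusted p 0.0284) and the fit without control 4 (0.0149) among them. When single libraries were left out it passed in 2 of 7 fits, and the adjusted p reached 0.239 without mutant 6.

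**Figure D1:**
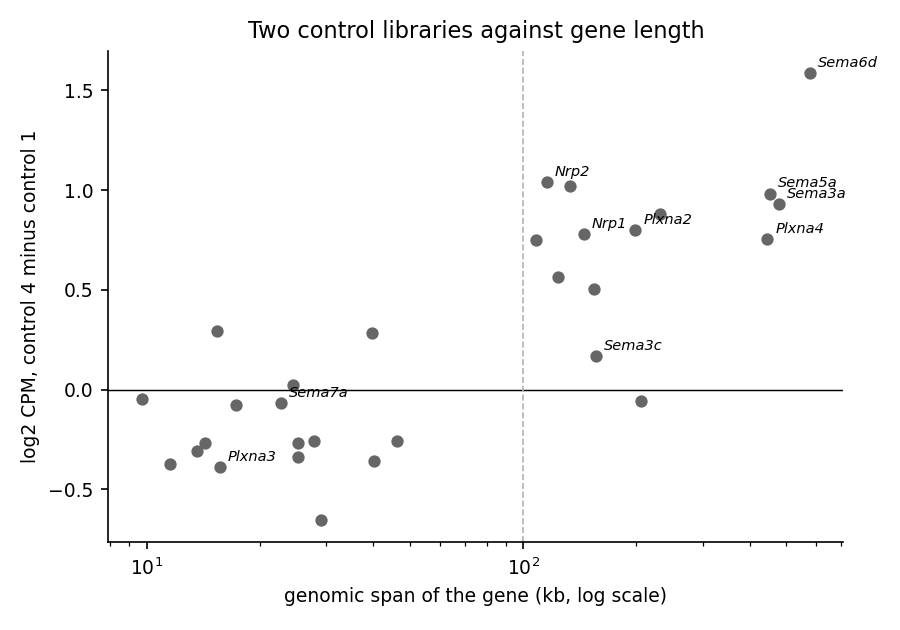
Difference in log2 CPM (with 0.5 CPM added) between control 4 and control 1 for each of the 30 tested members, against the genomic span of the gene in kb on a log scale. The dashed line marks 100 kb. Points to its right lie mostly above 0, with Sema6d at the top, and points to its left lie mostly below 0.

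Of the 31 genes, 30 had enough reads to be tested, and 7 of these passed at an adjusted p under 0.05 (23.3%), against 9.42% of the 16448 tested genes. The mutants were higher in Sema3a, Sema4a, Sema5a and Plxna3 and lower in Sema3c, Sema7a and Plxna4. Thus 4 members rose (4.63% of all tested genes did) and 3 fell (4.78% of all tested genes). The 7 were 5 of 19 tested semaphorins and 2 of 9 plexins, and neither neuropilin was among them. The median log2 fold change was 0.31 over the 30 genes and -0.01 over all tested genes, and 20 of the 30 were above 0. In 14 of the 30 the libraries of the groups did not overlap (22.0% of all tested genes), 11 with the mutants above (11.2% of all tested genes) and 3 with the mutants below (10.7%). The number called rested on single libraries, with 4 members called without mutant 6 and 14 without control 4, where 4.55% and 14.45% of all tested genes were called. The calls of Sema3c, Plxna3, Sema3a and Sema7a held in all 15 alternatives. In sorted bulk nuclei, fewer nuclei of a type and less RNA per nucleus cannot be told apart. Pvalb, which marks parvalbumin neurons, was at 35.7 to 47.8 CPM in controls and at 1.28 to 2.58 CPM in mutants, while Sst, which marks somatostatin neurons, was at 219 to 331 and at 430 to 566 CPM. Other markers of these types did not all follow: of 12 parvalbumin markers 5 were called lower (Pvalb, Kcnab3, Akr1c18, Syt2 and Kcnc1) and 2 higher (Tmem132c and Lgi2), with a median log2 fold change of -0.14. Of 8 somatostatin markers 3 were called higher and Hpse lower (log2 fold change -1.09). The part of such shifts in the values below was not tested.

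**Figure D2:**
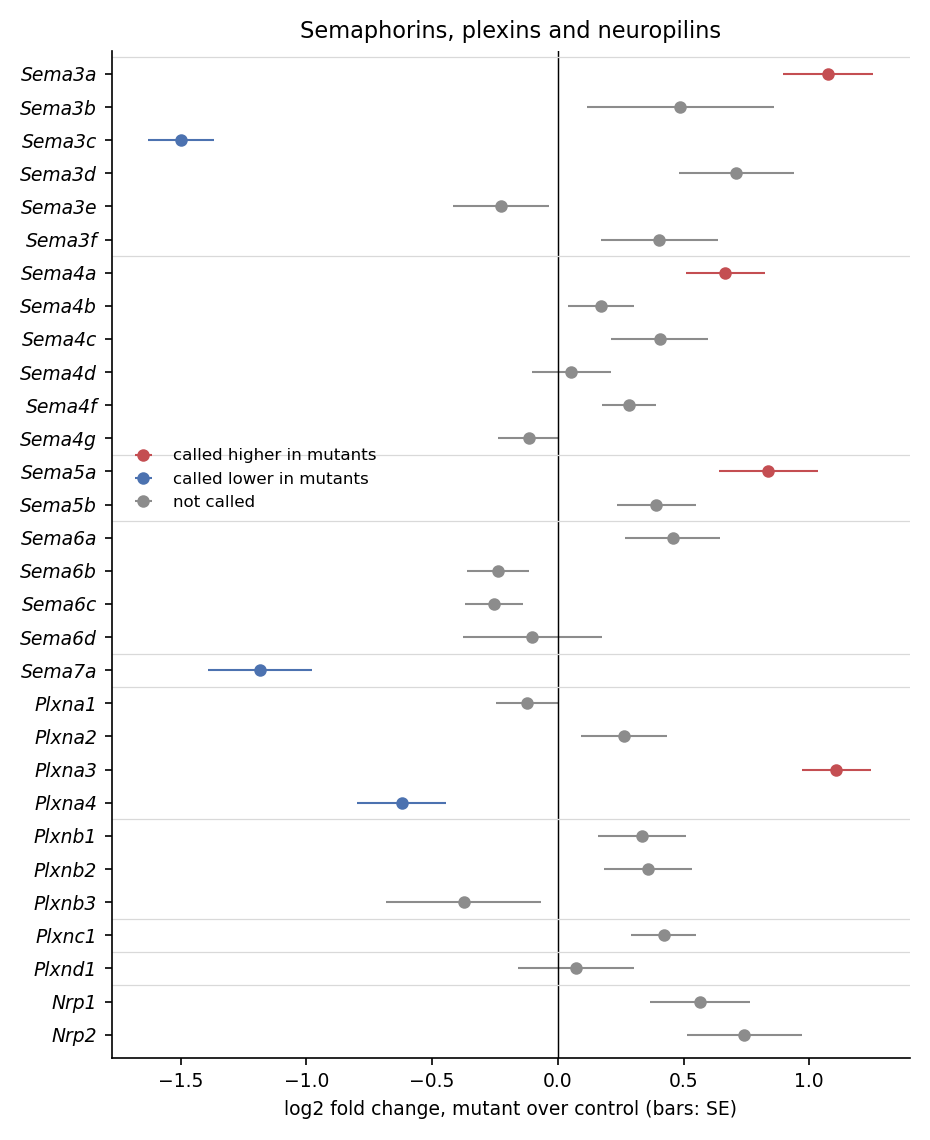
Log2 fold change of mutant over control with its SE (horizontal bars) for the 30 tested members, grouped by class. Red points were called higher, blue points lower, and grey points were not called. Sema3c and Sema7a lie farthest to the left and Plxna3 and Sema3a farthest to the right.

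Sequence before the start site was available from RefSeq (GRCm38.p6) for 26 of the 31 members, as 250 bases upstream of the start. The windows of Plxna3 and Sema5a, which were higher in mutants, and of Sema3c and Sema7a, which were lower, are shown as examples of changed genes whose window lies within 1 kb of the annotated start of the gene. Sema4a, with 4 RefSeq windows, is not shown. They are written 5′ to 3′ on the strand of the gene, and capitals mark AGGTCA on either strand, the hexamer that thyroid hormone receptors bind in pairs.
Plxna3: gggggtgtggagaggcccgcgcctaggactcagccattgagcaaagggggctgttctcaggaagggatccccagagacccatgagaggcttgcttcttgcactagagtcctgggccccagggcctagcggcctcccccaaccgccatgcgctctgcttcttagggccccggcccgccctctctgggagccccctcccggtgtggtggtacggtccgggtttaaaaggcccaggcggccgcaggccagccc
Sema5a: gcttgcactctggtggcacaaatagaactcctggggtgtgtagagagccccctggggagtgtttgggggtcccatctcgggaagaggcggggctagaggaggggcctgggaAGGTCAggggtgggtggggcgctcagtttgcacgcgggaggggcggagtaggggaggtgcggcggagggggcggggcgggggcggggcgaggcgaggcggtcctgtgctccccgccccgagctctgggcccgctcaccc
Sema3c: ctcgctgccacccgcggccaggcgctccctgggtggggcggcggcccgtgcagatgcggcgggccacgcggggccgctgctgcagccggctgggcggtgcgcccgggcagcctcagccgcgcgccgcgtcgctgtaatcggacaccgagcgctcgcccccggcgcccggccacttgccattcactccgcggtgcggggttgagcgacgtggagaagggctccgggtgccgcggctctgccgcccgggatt
Sema7a: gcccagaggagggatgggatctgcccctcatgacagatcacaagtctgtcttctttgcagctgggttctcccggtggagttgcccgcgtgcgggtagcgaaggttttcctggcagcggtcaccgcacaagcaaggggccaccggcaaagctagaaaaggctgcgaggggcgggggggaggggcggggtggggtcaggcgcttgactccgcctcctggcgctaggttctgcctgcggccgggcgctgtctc
These windows are chrX:74328816-74329065, chr15:32244563-32244812, chr5:17574566-17574815 and chr9:57939862-57940111, in the order shown and all on the plus strand. That of Sema3c lies inside the annotated gene, since its RefSeq start is 535 bases past the annotated start. The hexamer was found in 1 of the 4, that of Sema5a, where it begins 139 bases before the start. Taking for each gene the window nearest its annotated start, 5 of 26 members held it (Nrp1, Plxnd1, Sema4b, Sema4d and Sema5a), which is 19.2%, against 14.0% of the 32851 windows of all genes. That background counts every window, and some genes have several, so these shares are not on the same basis. A background of 1 window per gene was not computed. A direct repeat of the hexamer with 4 bases between the copies, searched on both strands with the bases just after the start included, was found in 0 windows of the members and in 5 windows of all genes. A match describes the letters of the window only. For Sema3a the window lies 271370 bases inside the annotated gene, beyond the limit of 1 kb, and it was therefore not shown.

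Among the secreted ligands, Sema3a and Sema3c moved in opposite directions. Sema3a (chromosome 5, 13125414 to 13602565), the ligand of Nrp1 and plexins A, was at 32.1, 57.2, 46.4 and 61.7 CPM in controls 1 to 4 and at 107, 97.4 and 107 CPM in mutants 6, 7 and 8. Every mutant was above every control, with a 2.11-fold rise (log2 fold change 1.08, SE 0.18, adjusted p 0.00262). Sema3c (chromosome 5, 17574281 to 17730268), which binds both neuropilins, was at 70.7, 87.8, 63.6 and 79.5 CPM in controls and at 27.1, 25.8 and 27.1 CPM in mutants. The mutants lay close together and below every control, a 2.83-fold fall (log2 fold change -1.50, SE 0.13, adjusted p 3.5e-05). In CPM per kb of annotated exon, Sema3a stood at 0.336 ± 0.0730 of the level of Sema3c in controls (SD, n = 4) and at 2.01 ± 0.0556 of it in mutants (SD, n = 3). By this measure Sema3c was the higher in each of the 4 controls, and Sema3a in each of the 3 mutants. Sema3a spans 477 kb and Sema3c 156 kb, and the ratio per kb of span was not compared.

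Of the summed level of the 7 class 3 genes per kb of exon, Sema3a made up 14.9 ± 2.25% in controls and 36.8 ± 0.694% in mutants. For Sema3c the share was 44.98 ± 3.79% in controls and 18.3 ± 0.839% in mutants. Sema3e, which binds Plxnd1 without a neuropilin, held 31.1 ± 3.96% and 30.9 ± 2.75%, and its log2 fold change was -0.23 (SE 0.19, adjusted p 0.551). The sum of class 3 reads, in CPM not scaled to exon length, was 206 ± 37.7 in controls and 207 ± 15.9 in mutants. The groups thus differed in the make-up of the class per kb of exon and overlapped in its summed CPM. Totals per kb of exon were not compared.

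The other class 3 ligands were rare. Sema3d was at 5.31, 4.61, 3.20 and 5.08 CPM in controls and at 7.98, 6.33 and 7.98 CPM in mutants, without overlap, and was not called (log2 fold change 0.71, SE 0.23, adjusted p 0.0764). It was called without control 1 (adjusted p 0.0406) or control 4 (0.0477). Sema3f, the ligand of Nrp2 and Plxna3, was at 4.46 to 7.77 CPM in controls and 6.81 to 8.45 CPM in mutants (log2 fold change 0.40, SE 0.23, adjusted p 0.347). Sema3b rested on 10 to 29 reads a library, with overlapping groups. Sema3g, a ligand known from vessels, had 1 to 6 reads in controls and 0 to 2 in mutants and was not tested, so no difference was detectable at this depth.

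**Figure D3:**
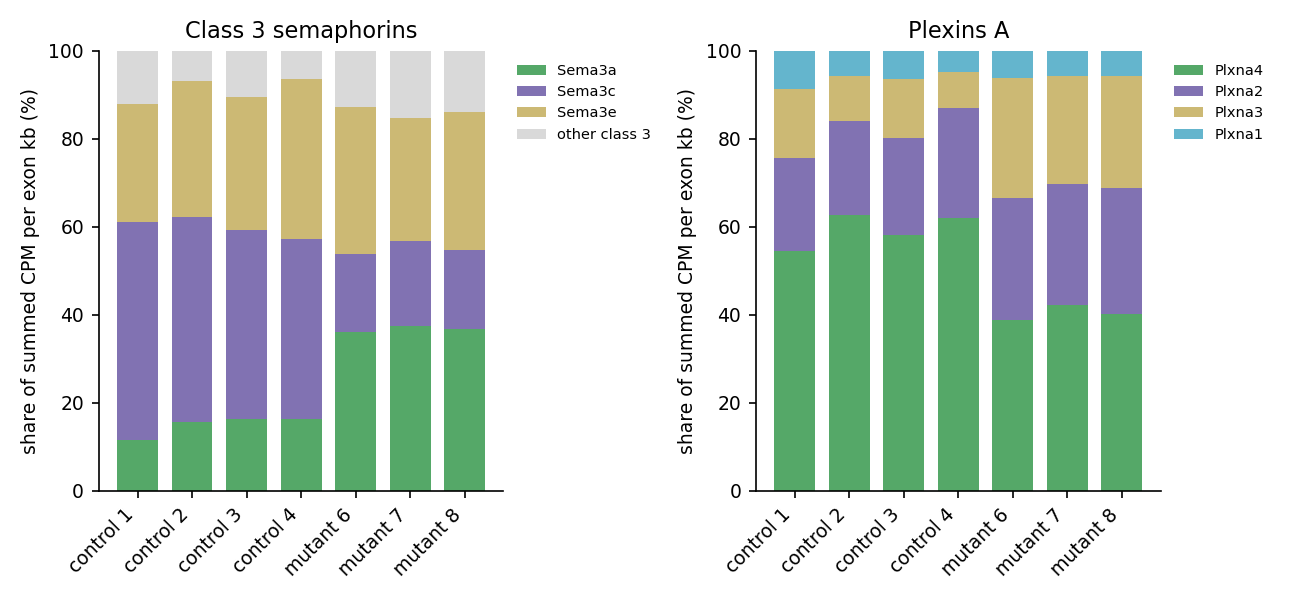
Make-up of the class 3 semaphorins (left) and of the plexins A (right) in each library, as shares in percent of the summed CPM per kb of exon. Shares scaled by genomic span were not compared. Sema3a takes 11.6 to 16.3% of its class in controls and 36.1 to 37.5% in mutants, and Plxna3 takes 8.12 to 15.7% of its group in controls and 24.5 to 27.2% in mutants.

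Sema7a, the membrane-anchored ligand of Plxnc1 and of β1 integrin, fell. Sema7a (chromosome 9, 57940112 to 57962865) was at 30.9, 26.4, 24.9 and 29.4 CPM in controls and at 9.08, 10.5 and 17.2 CPM in mutants. The groups did not overlap, and mutant 8 was the highest of the mutants, at 220 reads against 116 and 114. The fall was 2.27-fold (log2 fold change -1.18, SE 0.21, adjusted p 0.00351). With the presence of Y-linked reads, which mutant 8 lacks, as a covariate, the log2 fold change was -1.26, and without mutant 8 it was -1.51. The receptor Plxnc1 was at 89.2, 118, 105 and 127 CPM in controls and at 150, 156 and 135 CPM in mutants. Each mutant was above each control, but Plxnc1 was not called (log2 fold change 0.42, SE 0.13, adjusted p 0.0630). It was called with DESeq2 (adjusted p 0.0419) and without control 4 (0.00789). The integrin subunit Itgb1 was at 65.4 to 69.9 CPM in controls and 69.9 to 77.2 CPM in mutants (log2 fold change 0.12, adjusted p 0.524).

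Among the ligands that span the membrane, 1 of 6 in class 4 and 1 of 2 in class 5 were called higher, against 4.63% of all tested genes. Each is a single call that was lost in 3 of the fits that left out 1 library. Sema4a (chromosome 3, 88435959 to 88461182), which acts on plexins of the groups B and D, was at 20.9, 18.3, 21.8 and 17.3 CPM in controls and at 31.0, 25.0 and 37.1 CPM in mutants. The groups did not overlap, with a 1.59-fold rise (log2 fold change 0.67, SE 0.16, adjusted p 0.0192). The call was lost without control 2 (0.63, adjusted p 0.0633), mutant 6 (0.67, 0.0764) or mutant 8 (0.52, 0.127). Sema5a (chromosome 15, 32244810 to 32696341), a ligand with thrombospondin repeats, was at 51.2, 93.6, 68.8 and 102 CPM in controls and at 152, 149 and 120.5 CPM in mutants. Again no control reached a mutant, and the rise was 1.79-fold (log2 fold change 0.84, SE 0.20, adjusted p 0.0194). This call was lost without control 3 (0.78, adjusted p 0.0621), mutant 6 (0.78, 0.0970) or mutant 7 (0.80, 0.0934).

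Sema5b, the other class 5 ligand, was at 26.1 to 38.9 CPM in controls and 39.4 to 53.4 CPM in mutants, without overlap, and was not called (log2 fold change 0.39, SE 0.16, adjusted p 0.156). In class 4, Sema4f also did not overlap, at 42.7 to 51.2 CPM in controls and 54.4 to 58.5 CPM in mutants (log2 fold change 0.28, SE 0.11, adjusted p 0.129). Sema4d, the ligand of Plxnb1, was at 43.0 to 72.5 CPM in controls and 62.2 to 67.4 CPM in mutants, so the mutants lay inside the range of the controls (log2 fold change 0.05, SE 0.16, adjusted p 0.892). Sema4b, Sema4c and Sema4g had log2 fold changes of 0.17, 0.40 and -0.12, with overlapping groups and adjusted p-values of 0.244 to 0.650.

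None of the 4 class 6 ligands was called in the edgeR fit. This class was the most abundant of the semaphorins, at 451 to 885.5 summed CPM in controls and 645 to 664 in mutants. Sema6a, which binds Plxna2 and Plxna4, was at 96.7, 172, 144 and 196 CPM in controls and at 209, 217 and 201 CPM in mutants. Control 4 lay just below the lowest mutant, and the log2 fold change was 0.46 (SE 0.19, adjusted p 0.175). Sema6d was at 179, 304, 278 and 537 CPM in controls and at 321, 288 and 298 CPM in mutants. Control 1 was lowest and control 4 highest of all 7 libraries, and the log2 fold change was -0.10 (SE 0.28, adjusted p 0.884), or 0.25 without control 4 (adjusted p 0.331). Sema6b (-0.24, SE 0.12, adjusted p 0.293) and Sema6c (-0.25, SE 0.12, adjusted p 0.217) overlapped between the groups. At an unadjusted p under 0.05, Sema6a and Sema6c passed (0.0335 and 0.0481). With limma-voom and with controls 1 and 4 left out, both were called, and DESeq2 called neither.

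The plexins A, which carry the signal of class 3 and class 6 ligands, shifted in make-up. Plxna3 (X chromosome, 74329066 to 74344689), the receptor used by Sema3f with Nrp2, was at 78.3, 63.6, 83.3 and 59.7 CPM in controls and at 175, 141 and 144 CPM in mutants. The lowest mutant was well above the highest control, with a 2.15-fold rise (log2 fold change 1.11, SE 0.14, adjusted p 0.000370). Plxna4 (chromosome 6, 32144268 to 32588192), the receptor used by Sema3a with Nrp1, was at 484, 692, 649 and 816 CPM in controls and at 447, 432 and 410 CPM in mutants. The groups did not overlap, though control 1 lay near the mutants, and the fall was 1.54-fold (log2 fold change -0.62, SE 0.18, adjusted p 0.0469). That call was close to the threshold: with RLE size factors the adjusted p was 0.0514. It was also lost without control 2 (-0.60, adjusted p 0.130), control 3 (-0.62, 0.113), mutant 6 (-0.65, 0.142), mutant 7 (-0.62, 0.183) or mutant 8 (-0.58, 0.191). Without control 1 it was -0.74 (adjusted p 0.00231).

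Plxna2 was at 230, 287, 298 and 400 CPM in controls and at 393, 344 and 357 CPM in mutants, with an overlap through control 4 (log2 fold change 0.26, SE 0.17, adjusted p 0.415). Without control 4 it was called (0.42, adjusted p 0.0349). Plxna1 was at 40.2 to 49.8 CPM in controls and 38.2 to 45.9 CPM in mutants (log2 fold change -0.12, SE 0.12, adjusted p 0.640). Other genes overlap 10.7% of the exon length of Plxna1 and 27.5% of its span, so its counts are less certain. Per kb of exon, Plxna4 made up 59.3 ± 3.84% of the summed level of the group in controls and 40.3 ± 1.69% in mutants. The share of Plxna3 was 11.9 ± 3.35% in controls and 25.7 ± 1.36% in mutants, and that of Plxna2 was 22.4 ± 1.75% and 28.1 ± 0.609%. Summed reads of the group were 842 to 1317 CPM in controls and 949 to 1061 CPM in mutants. The shares rest on scaling by exon length, and whether reads in introns were counted is not known. In genomic span, Plxna4 covers 444 kb, Plxna2 199 kb, Plxna1 46.3 kb and Plxna3 15.6 kb. Shares scaled by span were not compared, so which plexin A is most abundant is not settled.

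The remaining receptors were not called. Nrp1 was at 21.2, 22.1, 22.3 and 36.7 CPM in controls and at 42.0, 30.8 and 40.6 CPM in mutants. Only control 4 reached into the range of the mutants, and the log2 fold change was 0.57 (SE 0.20, adjusted p 0.103). Without control 4 it was 0.79 and was called (adjusted p 0.00111). Nrp2 was at 8.41, 16.2, 10.4 and 17.8 CPM in controls and at 23.2, 20.9 and 22.1 CPM in mutants, without overlap (log2 fold change 0.74, SE 0.23, adjusted p 0.0656). It too was called without control 4 (0.92, adjusted p 0.00548), and with DESeq2 (0.74, adjusted p 0.0293). The plexins B, which bind class 4 ligands, had log2 fold changes of 0.33 for Plxnb1, 0.36 for Plxnb2 and -0.37 for Plxnb3, with adjusted p-values of 0.250 to 0.539. Of these, Plxnb1 did not overlap between the groups, at 8.15 to 9.67 CPM in controls and 9.73 to 12.6 CPM in mutants. Plxnd1, the receptor of Sema3e, was at 5.89 to 8.77 CPM in controls and 5.69 to 9.07 CPM in mutants (log2 fold change 0.07, SE 0.23, adjusted p 0.900).

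**Figure D4:**
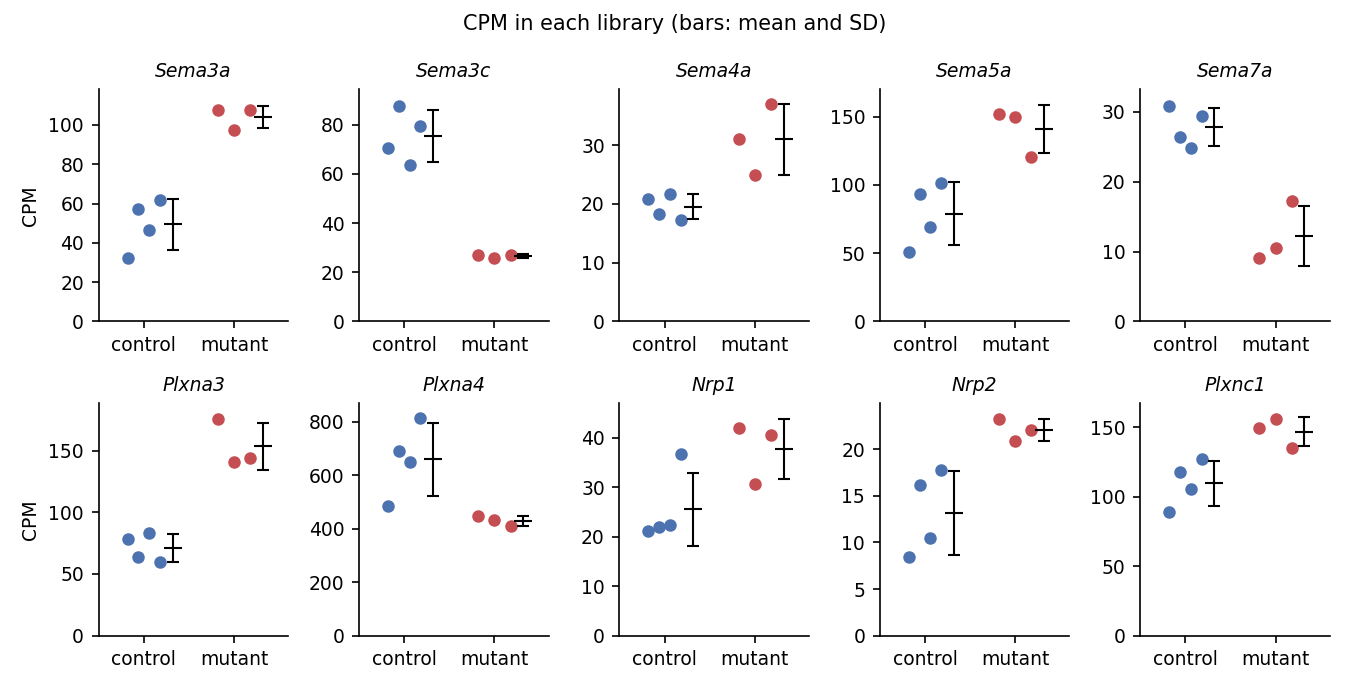
CPM in each of the 4 control (blue) and 3 mutant (red) libraries for the 7 called members and for Nrp1, Nrp2 and Plxnc1, with mean and SD beside the points and axes that start at 0. The groups do not overlap in any panel except that of Nrp1, where control 4 at 36.7 CPM exceeds mutant 7 at 30.8 CPM.

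Levels were compared between genes as CPM per kb of annotated exon, since longer transcripts collect more reads. In controls Plxna4 ranked 1 at 46.8 ± 9.73 and Sema6d ranked 2 at 30.7 ± 14.4, with overlapping libraries. Plxna2 (17.7 ± 4.12), Sema6a (17.4 ± 4.88), Sema6c (17.3 ± 2.02) and Sema6b (17.0 ± 2.16) followed and did not differ beyond their spread. Plxna3 ranked 10 in controls at 9.04 ± 1.44 and 5 in mutants at 19.5 ± 2.43. Sema3c went from rank 8 at 10.6 ± 1.47 to rank 20 at 3.73 ± 0.106, and Sema7a from rank 12 at 8.46 ± 0.830 to rank 21 at 3.71 ± 1.32. Sema3a went from rank 20 at 3.56 ± 0.949 to rank 13 at 7.50 ± 0.416. In both groups Plxna4, Plxna2, Plxnc1 and the class 6 ligands were among the 8 highest, and Plxnb3, Sema3b and Sema3g took the last 3 places. Levels of Nrp1 (2.61 ± 0.760 in controls) and Nrp2 (1.12 ± 0.380) were far below that of Plxna4. Whether reads in introns were counted is not given in the sources used here, and nuclear RNA is rich in them, so these levels per kb of exon are approximate. If such reads were counted, the ranks depend on the choice of exon length over span. Plxna4 spans 444 kb and Sema6d 578 kb, against 15.6 kb for Plxna3. Levels per kb of span were not compared, so the order of these genes is not settled.

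Other genes of the pathway came from lists of co-receptors and of effectors. Of 39 tested genes 7 were called (17.9%, against 9.42% of all tested genes), 5 higher and 2 lower. Of 11 tested co-receptors, 3 rose and 2 fell. L1cam, the adhesion protein that joins Nrp1 in the receptor for Sema3a, was at 101, 106, 106 and 95.7 CPM in controls and at 173, 201 and 184 CPM in mutants (log2 fold change 0.86, SE 0.10, adjusted p 0.000287). Its close relative Chl1 was at 184, 224, 218 and 204.5 CPM in controls and at 351, 404.5 and 364 CPM in mutants (log2 fold change 0.85, SE 0.12, adjusted p 0.00107). Both were thus higher in every mutant than in any control, whereas Nrcam, of the same family, overlapped (log2 fold change 0.30, SE 0.16, adjusted p 0.282).

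Cntn2, an adhesion molecule of axons that takes part in responses to Sema3a, was at 101 to 119 CPM in controls and at 51.4 to 57.3 CPM in mutants (log2 fold change -1.03, SE 0.11, adjusted p 0.000102). Met, a receptor tyrosine kinase that pairs with plexins B, rose from 4.44 to 6.82 CPM in controls to 10.0 to 10.8 CPM in mutants (log2 fold change 0.84, SE 0.20, adjusted p 0.0207). The call for Met was lost without control 3 (0.80, adjusted p 0.0673), mutant 6 (0.80, 0.0919), mutant 7 (0.86, 0.0736) or mutant 8 (0.86, 0.0754). Cd72, a receptor of Sema4d known from B cells, had 49 reads in all controls and 5 in all mutants. This is a ratio of 6.96 of controls over mutants, with an exact 95% counting interval of 2.79 to 22.4 (edgeR adjusted p 0.0112). It was not called without mutant 6 (-2.42, adjusted p 0.0761) or mutant 8 (-2.41, 0.0779), and Tesk1 overlaps 19.6% of the gene. Reads amplified by PCR without molecular identifiers are not independent, so this interval covers counting error only.

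Inside the cell, plexin signals reach the cytoskeleton through the collapsin response mediators, MICAL enzymes and small GTPases. Of 28 tested effectors 2 were called, no larger a share than the 9.42% over all tested genes. Both were collapsin response mediators and rose. Dpysl3 was at 48.8, 60.0, 61.4 and 50.4 CPM in controls and at 101, 134 and 116 CPM in mutants (log2 fold change 1.09, SE 0.13, adjusted p 0.000256). Dpysl5 was at 119 to 152 CPM in controls and 184 to 205 CPM in mutants (log2 fold change 0.51, SE 0.12, adjusted p 0.0149). It lost its call without control 2 (0.49, adjusted p 0.0600), mutant 6 (0.52, 0.0656) or mutant 7 (0.48, 0.0888). The other 3 members of this protein family, Crmp1, Dpysl2 and Dpysl4, had log2 fold changes of 0.01, 0.16 and -0.09 and overlapping groups. Median log2 fold changes were 0.30 over the co-receptors and -0.02 over the effectors.

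**Figure D5:**
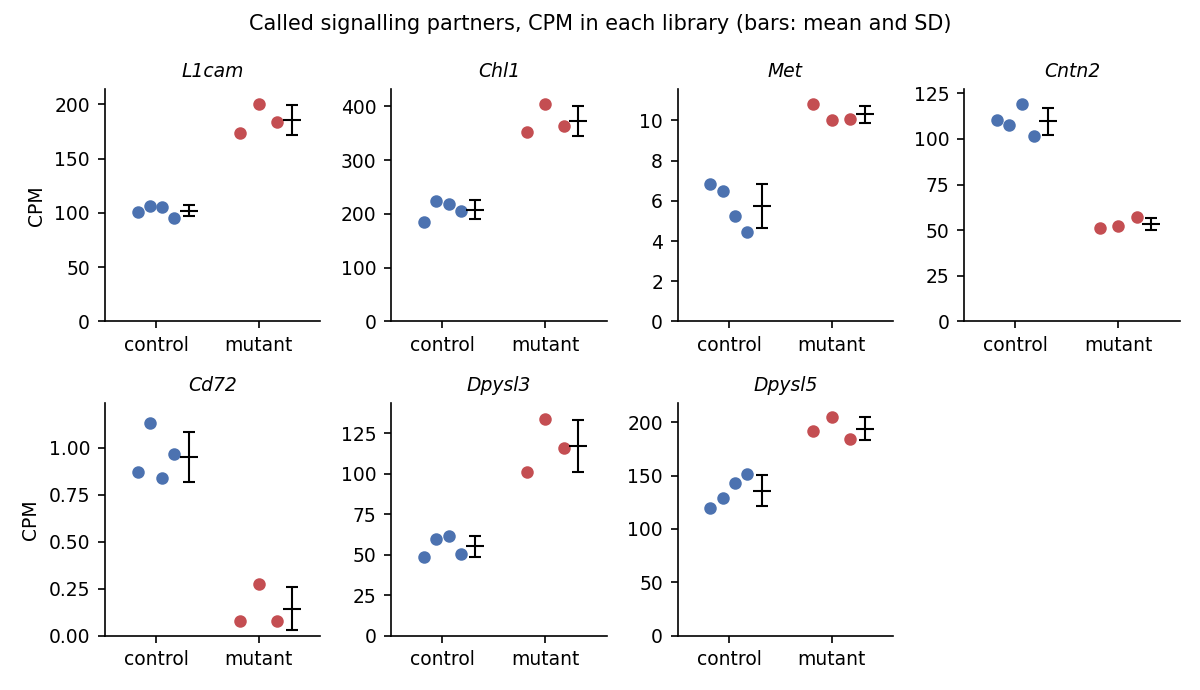
CPM in each of the 4 control (blue) and 3 mutant (red) libraries for the 7 called co-receptors and effectors, with mean and SD beside the points and axes that start at 0. L1cam, Chl1, Met, Dpysl3 and Dpysl5 are higher in the mutants and Cntn2 and Cd72 lower, with no overlap in any panel.

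The members varied more among controls than among mutants. The median SD of log2 CPM over the 30 tested members was 0.26 in controls and 0.15 in mutants, and in 21 of 30 (70.0%) the SD was larger in controls. Over all tested genes the medians were 0.24 and 0.15, and the SD was larger in controls in 69.97%, so the members were close to the background. Across the members, the SD in controls rose with the genomic span (Spearman's rho 0.55, n = 30 genes measured in the same libraries), whereas over all tested genes rho was -0.05. Fold changes were little related to span, with rho 0.13 over the members and 0.08 over all tested genes. With an offset from genomic length the fit called 13 members, the 7 above and also Nrp1, Nrp2, Plxna2, Plxnc1, Sema5b and Sema6a, all 6 higher in mutants. In that fit 16.7% of all tested genes were called.

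Markers of other cells were measured beside these genes in 8 lists. Of 60 tested markers edgeR called 3, a smaller share than the 9.42% over all tested genes. They were the oligodendrocyte gene Mog (higher, 1 of 8 in its list), the astrocyte gene Slc4a4 (lower, 1 of 7) and the striatal gene Rgs9 (higher, 1 of 7). At an unadjusted p under 0.05 there were 10, DESeq2 called 4 and limma-voom 6 (12.1% and 19.1% of all tested genes). The summed level of the precursor list was 48.7 to 61.5 CPM in controls and 61.7 to 70.5 CPM in mutants, and that of the astrocyte list 352 to 513.5 and 297 to 338 CPM, without overlap in either. Of the tested precursor genes, only Vcan (27.8 to 43.2 and 43.3 to 53.6 CPM, not called) was itself without overlap. Of the tested astrocyte genes, only Slc4a4 was (168 to 248 and 133 to 157 CPM). Each has the highest level in its list, and sums without them were not compared. Sums of the glutamatergic (564 to 778 and 468 to 572 CPM), oligodendrocyte (163 to 202 and 182 to 217 CPM), striatal (110 to 193 and 191 to 245 CPM), endothelial (57.3 to 132 and 56.4 to 87.7 CPM), mural (36.4 to 99.9 and 35.3 to 56.6 CPM) and microglial (68.6 to 85.9 and 84.2 to 90.2 CPM) lists overlapped. C1ql1, Gfap and P2ry12 were listed at 0 in all libraries, as was Dlx1 of the GABAergic list. Among the GABAergic classes, the somatostatin list summed to 919 to 1089 CPM in controls and 1469 to 1784 CPM in mutants, with Sst, Calb1 and Crhbp called higher and Hpse lower. The sums of the parvalbumin (4671 to 7464 and 6012 to 7291 CPM), VIP (378 to 574.5 and 552 to 577 CPM) and LAMP5 (1149 to 1294 and 1169 to 1470 CPM) lists overlapped. Most of the parvalbumin sum came from Erbb4 (2460 to 4082 and 3405 to 4343 CPM) and Kcnc2 (1093 to 1961 and 1697 to 1901 CPM). Neither was called, and the sum without them was not compared, so it says little about the other parvalbumin markers. Beside the parvalbumin markers named above, Npas1, Tac2 and Cck of the VIP list and Sv2c of the LAMP5 list were called higher, and Chat and Crh (VIP) and Npy and Cplx3 (LAMP5) lower. Their part in the changes of the semaphorins and plexins was not tested.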

How the data were processed

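Nuclear RNA of sorted cortical nuclei was sequenced from 4 control and 4 mutant samples, per the labels' protocols after SMART-Seq v4 amplification and Nextera XT library preparation. The authors deposited raw counts of reads per gene in tables with no header. For 4 samples the library number in the table's name differs from that in the sample's description, and each table was assigned to the sample it was deposited under. Bowtie2 2.5.3 and the builds mm10 and GRCm38 are named in the submitters' processing notes, and the counting program, its strand setting and its annotation are not given in the sources used here. All 55450 identifiers matched GENCODE M21 (GRCm38), which gave symbols, coordinates and exon lengths. Gfap, P2ry12, C1ql1, Dlx1, Timd2 and Sh3bp1 are listed at 0 in every library. All but Timd2 lie wholly within the span of other genes, and whether reads in overlaps were dropped was not tested. The table of mutant 10 repeated that of mutant 7 and was left out.

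Genes kept by filterByExpr (least count 10, least total 15) were fitted with edgeR 4.0.16 in R 4.3.3 (TMM, robust quasi-likelihood, group as the only term), with two-sided Benjamini-Hochberg adjusted p-values over all 16448 tested genes and calls at an adjusted p under 0.05. The SE is the log2 fold change divided by the square root of F. At 10747169 reads, the lowest total, precision is limited for members under 1 CPM. Fits were run on simulated counts that held no difference between libraries by gene length. That check therefore does not cover the trend between controls 1 and 4. DESeq2 1.42.0 and limma 3.58.1 served as alternatives. The promoter windows came from RefSeq (GRCm38.p6). By rule the text names every member, Thra, Pvalb and the called genes of the lists. Gad1, Gad2, Slc32a1, Itgb1, Nrcam, Crmp1, Dpysl2, Dpysl4, the genes listed at 0 and the 4 printed windows fall outside it and were chosen after values were seen. The same holds for Slc17a7, Neurod6, Erbb4, Kcnc2 and Vcan. Members and lists were chosen with earlier results of these data known.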

Additional observations from a re-analysis of the deposited data

Results flagged for a closer look

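Of 40 values examined over the 4 controls (the 31 members, Thra, Pvalb and 7 partner genes), 4 held a control that lay far from the rest: its distance from the closest control, as a share of the range over controls, was above Dixon's critical value for 4 samples. By chance alone, 1 value in 20 (2 of these 40) would stand apart this way. In control 4 Nrp1 reached 36.7 CPM, against 21.2 to 22.3 CPM in the other controls (gap over range 0.927), and without this library Nrp1 was called. Sema4b was at 27.4 CPM in control 1 against 33.5 to 34.0 CPM (0.917), and Sema5b at 26.1 CPM in control 1 against 36.8 to 38.9 CPM (0.835). Plxnb1 was at 9.67 CPM in control 2 against 8.15 to 8.39 CPM (0.841). Groups of 3 mutants were too small for this check.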

How the results depend on the processing

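Of the 7 called members, Sema3c, Plxna3, Sema3a and Sema7a were called in all 15 alternatives, at log2 fold changes of -1.57 to -1.42, 1.00 to 1.20, 0.92 to 1.20 and -1.51 to -1.01. Sema4a and Sema5a were called in 12 of 15 and Plxna4 in 9. Counts of called members, partner genes and all tested genes (7, 7 and 1549) were 14, 12 and 3147 with limma-voom and quality weights, 13, 11 and 2754 with the length offset, and 14, 12 and 2778 without controls 1 and 4. Leaving out single libraries gave 4 to 14, 4 to 10 and 734 to 2347, with the lowest counts of members and partners without mutant 6 and the lowest count of all genes without mutant 7. All 3 highest counts came without control 4. Of the uncalled members 3 changed sign. Leaving out single libraries gave Sema4d -0.0802 (without control 1) to 0.140, Sema6d -0.297 to 0.254 (without control 4) and Plxnd1 -0.0893 (without mutant 8) to 0.233, with -0.00385 for Plxnd1 without control 4. Without controls 1 and 4, Sema4d was at -0.0372 and Sema6d at 0.0544, and with limma-voom Sema6d was at 0.0483. The cause was not tested. The median log2 fold change of all tested genes stayed within -0.02 to 0.00 across these fits. No paired analysis was run because the labels give no link, such as a litter or batch, between control and mutant animals. With 19 to 46 reads a library for Plxnb3 and 10 to 29 for Sema3b, depth limits what those genes can show.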
